A study of Homo sapiens with 18 samples.

Results

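The chromatin of A2780 and its cisplatin-resistant derivative CP70 was compared with that of PEO1 and PEO4, whatever the platinum status of the line. The comparison used 12 ATAC-seq libraries of 18 in the series, 3 replicate libraries of each of 4 established human ovarian cancer cell lines. A2780 is platinum-sensitive and CP70, selected from it in culture, is resistant, and the sample labels give both an endometrial or ovarian origin. PEO1 (sensitive) and PEO4 (resistant) come from 1 patient with high-grade serous ovarian cancer. Both were derived after platinum-based treatment of the patient, PEO1 before resistance appeared in the clinic and PEO4 after it. The 6 libraries of A2780 and CP70 are called the A2780 lineage and the 6 of PEO1 and PEO4 the PEO lineage. All were grown in the same medium, with no treatment in the labels. Each lineage thus stands for 1 tumour, and a difference between them cannot be told apart from a difference between 2 individuals. Libraries of PEA1 and PEA2, a further high-grade serous pair, took no part in the tests.

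ATAC-seq marks open chromatin by where the Tn5 transposase inserts adapters. Cells of the fallopian tube, endometrium and other tissues that arise from the Müllerian duct share transcription factors such as PAX8, WT1 and oestrogen receptor, and high-grade serous cancer retains them together with an epithelial programme. Promoters of widely used genes are open in most cell types, whereas distal regulatory sites carry most of the difference between cell types. AP-1 (the FOS and JUN proteins) binds many such distal sites, and CTCF marks insulators and the anchors of chromatin loops.

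The values were FPKM in windows of 1 kb on hg19, which for windows of equal length are reads scaled to the library total (RPM). The 3 libraries of A2780 were the deepest, with implied totals between 44381391 and 60495462 reads. Those of CP70 held 13199941 to 23877965, of PEO4 17201132 to 20836579 and of PEO1 8972042 to 11461290 reads. The tabled windows held a mean of 9.25% ± 0.832 of the reads in A2780, 13.1% ± 2.15 in CP70, 39.9% ± 0.948 in PEO1 and 34.4% ± 1.51 in PEO4 (SD, n = 3 each). Values of log2(FPKM + 0.1) were therefore quantile-normalized over the 12 libraries, and every difference is PEO lineage minus A2780 lineage on that log2 scale unless another is named. A window was called when limma on the 4 line means gave an adjusted p under 0.05 and the 6 normalized values of one lineage lay beyond all 6 of the other. In bulk libraries, fewer cells with an open site and a less open site in each cell cannot be told apart, and the number of DNA copies also moves the reads of a window.

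Short stretches of 4 of the most different distal windows are shown because they hold letters that were unequally shared between the windows of the lineages. They are examples with a match. Of the 5 named PEO windows searched 3 held the AP-1 motif, and of the 6 named A2780 windows 1 held the CTCF core. Over all distal windows tested the shares were 47.0% and 2.64%, and so few windows do not measure a share. Other motifs were also in the named windows. The E-box CACCTG was in 5 of 5 PEO and 3 of 6 A2780 windows, the SOX motif in 4 of 5 and 1 of 6, and the GRHL motif in 0 of 5 and 1 of 6. The stretches are from the plus strand of GRCh37 (hg19), with the AP-1 motif TGANTCA or the CTCF core (CCAC, any base, AGG, any base, GG) in capitals. The stretch near NAALADL2 is chr3:174868832-174868852, that near ARAP2 is chr4:34183200-34183220, that in TOM1L1 is chr17:53026028-53026048 and that near FHIT is chr3:61235841-61235865. The first 3 windows were higher in the PEO lineage and the last in the A2780 lineage.

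NAALADL2 window, AP-1: taaacaaTGAATCAtacttac
ARAP2 window, AP-1: tgctgacTGAATCAagtccca
TOM1L1 window, AP-1: gattgtcTGAGTCAtgagggc
FHIT window, CTCF core: tggcacgCCACGAGGTGGagtacct

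The lineages differed at a large part of the windows, and at distal sites more than at promoters. Libraries of A2780 and CP70 were close to each other, with a mean Spearman correlation of 0.878 over 9 library pairs, and those of PEO1 and PEO4 less so, with 0.626 over 9. Between lineages the mean correlation was 0.282 for A2780 with PEO1, 0.259 for CP70 with PEO1, 0.439 for A2780 with PEO4 and 0.448 for CP70 with PEO4, against 0.923 to 0.965 among libraries of 1 line. These correlations run over windows that share libraries and describe the data only.

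Of 72415 windows tested, 8086 (11.2%) were called higher in the PEO lineage and 6526 (9.01%) higher in the A2780 lineage, together 20.2%. The difference was also over 4-fold at 4663 (6.44%) and 2707 (3.74%) of them. Windows were tested if their mean deposited FPKM over the 4 lines exceeded 1, and the balance of these counts depends on that filter. Without it 5062 and 4705 windows were over 4-fold, and above a mean of 5 FPKM 932 and 11 were. Among 26627 promoter windows, with a protein-coding start within 1 kb, 3.65% were called higher in the PEO lineage and 10.4% in the A2780 lineage, 0.89% and 2.36% over 4-fold. Among 45788 distal windows the shares were 15.5% and 8.23%, with 9.67% and 4.54% over 4-fold. The groups of 6 libraries did not overlap at 38.6% of all windows, called or not. The median difference was 0.08 over all windows, -0.19 at promoters and 0.41 at distal windows. In the values as deposited the median over all windows was 1.72, so differences on that scale are shifted towards the PEO lineage.

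The 4-fold windows of each lineage differed in position and GC content. Windows over 4-fold higher in the PEO lineage were distal in 94.9% of cases, lay a median of 84.3 kb from the nearest start, and had a median GC content of 41.4%. Those higher in the A2780 lineage were distal in 76.8% of cases, lay at 5.98 kb and had a GC content of 62.8%. Over all windows tested these medians were 6.21 kb and 52.2%. In deposited FPKM the PEO sites had a median of 5.90 in the PEO lineage beside 0.291 in the A2780 lineage. The A2780 sites had a median of 1.88 in the A2780 lineage beside 0.749 in the PEO lineage. Over all windows tested the median was 3.13 in the PEO lineage and 0.979 in the A2780 lineage, so this scale does not rank the strength of the sets. All 4663 PEO windows and all 2707 A2780 windows kept their sign in the values as deposited, where 59.8% of the A2780 windows differed by over 1 on the log2 scale. For the PEO windows this is no test, since deposited differences are shifted towards the PEO lineage by a median of 1.72. Of all called windows, irrespective of size, 4239 of the 6526 higher in the A2780 lineage kept their sign there. The share of reads in the tabled windows and GC content move with the lineage, and their part in the calls was not tested.

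The lineage difference was then compared between the sensitive and the resistant lines, to find the windows that hold whatever the status. The difference exceeded 4-fold, in the same direction, in all 4 comparisons of a PEO line with an A2780-lineage line at 2091 (44.8%) of the 4663 PEO windows and at 1568 (57.9%) of the 2707 A2780 windows. At the 4-fold PEO windows the median was 2.70 for PEO1 against A2780, 2.70 against CP70, 2.34 for PEO4 against A2780 and 2.32 against CP70. At the 4-fold A2780 windows these medians were -2.67, -2.84, -2.38 and -2.48. A lineage difference that itself changed with platinum status, with limma on the 12 libraries at an adjusted p under 0.001 and a size above 2, was found at 3746 windows (5.17%), 1875 in one direction and 1871 in the other. Of these, 258 were among the 4-fold lineage windows.

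**Figure D1:**
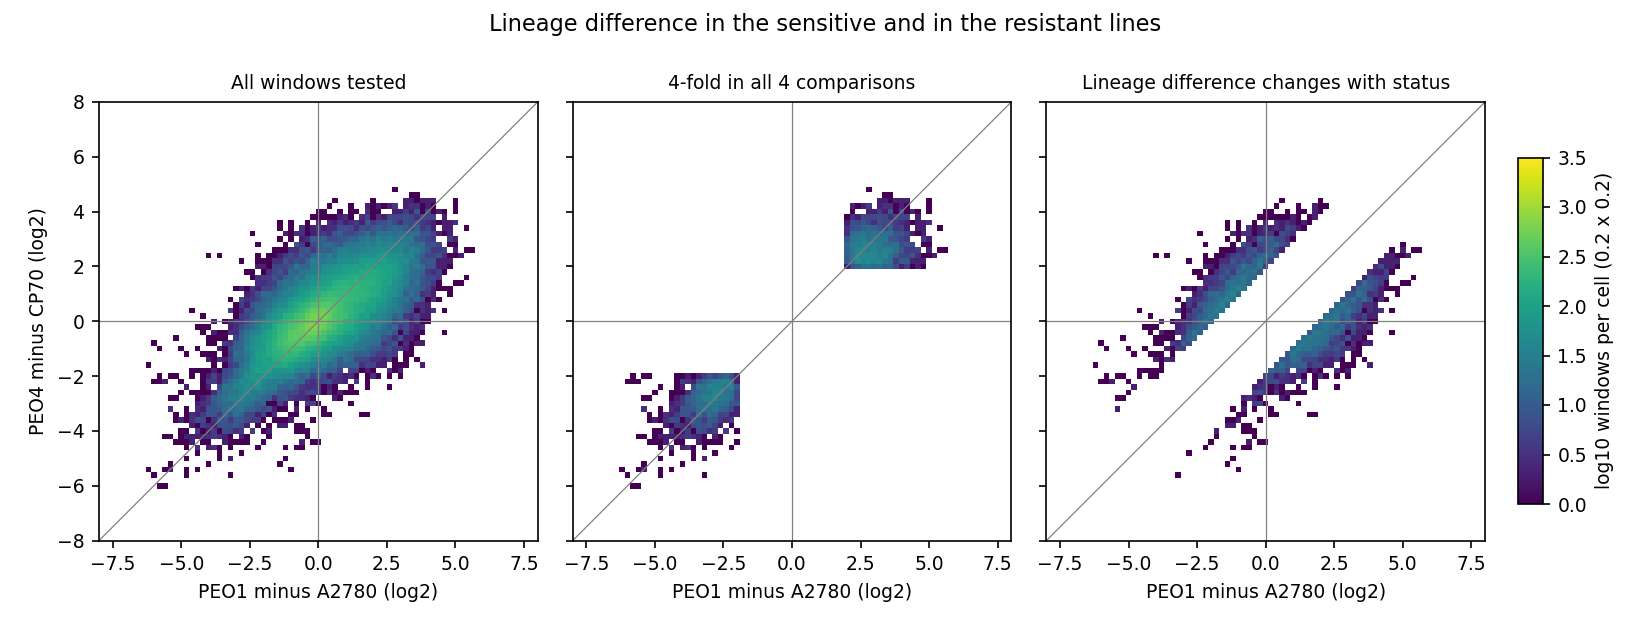
Lineage difference in the sensitive lines (PEO1 minus A2780, x) against that in the resistant lines (PEO4 minus CP70, y), both log2 of quantile-normalized values, for all 72415 windows, for the 3659 windows over 4-fold in all 4 comparisons, and for the 3746 windows where the difference changed with status. Colour gives the log10 number of windows in each cell of the grid, and the most filled cells lie along the diagonal.

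Of 26 promoters of epithelial identity genes tested, 9 were called higher in the PEO lineage (5 over 4-fold), none was called higher in the A2780 lineage and 17 were not called, with a median difference of 0.65. Among promoters of all 13690 genes tested, 3.89% were called higher in the PEO lineage and 11.9% in the A2780 lineage, 0.833% and 2.28% over 4-fold, with a median of -0.18. GRHL2, a grainyhead factor that holds epithelial enhancers open, had 0.401 to 0.606 FPKM (median 0.562) in the A2780 lineage and 21.4 to 33.5 (median 25.6) in the PEO lineage. The difference was 3.55 ± 0.30 (SE, 2 lines against 2, limma adjusted p = 0.0064). A call requires normalized values that do not overlap, and deposited FPKM are shifted towards the PEO lineage by a median of 1.72. Separate FPKM ranges at promoters called higher in the PEO lineage are therefore no further support. ESRP1, which directs epithelial splicing, ran from 0.544 to 0.872 (median 0.739) against 20.2 to 37.9 (median 28.8), a difference of 3.20 ± 0.34 (adjusted p = 0.0064). MAL2, a protein of apical transport, had 0.872 to 1.42 FPKM (median 1.07) against 33.2 to 41.6 (median 35.9), and MARVELD2, the tricellular junction protein tricellulin, had 0.152 to 0.680 (median 0.496) against 8.25 to 10.9 (median 9.73). The differences were 3.13 ± 0.27 and 2.53 ± 0.40 (adjusted p = 0.0064 and 0.0085). The protease inhibitor SPINT2 differed by 2.27 ± 0.32. EPCAM, an epithelial adhesion molecule, had 0.653 to 1.44 FPKM (median 0.876) in the A2780 lineage and 9.71 to 11.9 (median 10.9) in the PEO lineage, a difference of 1.76 ± 0.30 (adjusted p = 0.0097). OVOL1, ELF3 and ST14 were called at smaller differences, between 1.25 and 1.61. CDH1, which encodes E-cadherin, was not called, with a difference of 0.14. Of 6 keratin promoters tested, KRT8 was called higher in the PEO lineage at 1.45, and KRT7, KRT18, KRT19, KRT23 and KRT80 were not called, at 0.61 to 1.06.

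Distal windows around these genes were unequal in the same direction. Of 105 distal windows nearest to an epithelial gene and within 100 kb, 24 were called higher in the PEO lineage, 21 over 4-fold, and 4 in the A2780 lineage, 2 over 4-fold. Over all 33265 such windows of any gene 12.5% and 10.1% were called, 6.87% and 5.51% over 4-fold. MAL2 had 7 of 10 distal windows over 4-fold higher in the PEO lineage and GRHL2 had 5 of 14. The others of the 21 were 1 of 4 at ESRP1, 3 of 12 at ST14, 2 of 6 at EHF, 2 of 7 at GRHL1 and 1 of 3 at EPCAM. These distal counts are from the main normalization only. MAL2, GRHL2 and ESRP1 lie on chromosome 8, where 12.6% of all windows were over 4-fold higher in the PEO lineage. With the median difference of each 5 Mb stretch of chromosome removed, GRHL2 still differed by 2.59, ESRP1 by 2.25 and MAL2 by 1.85.

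**Figure D2:**
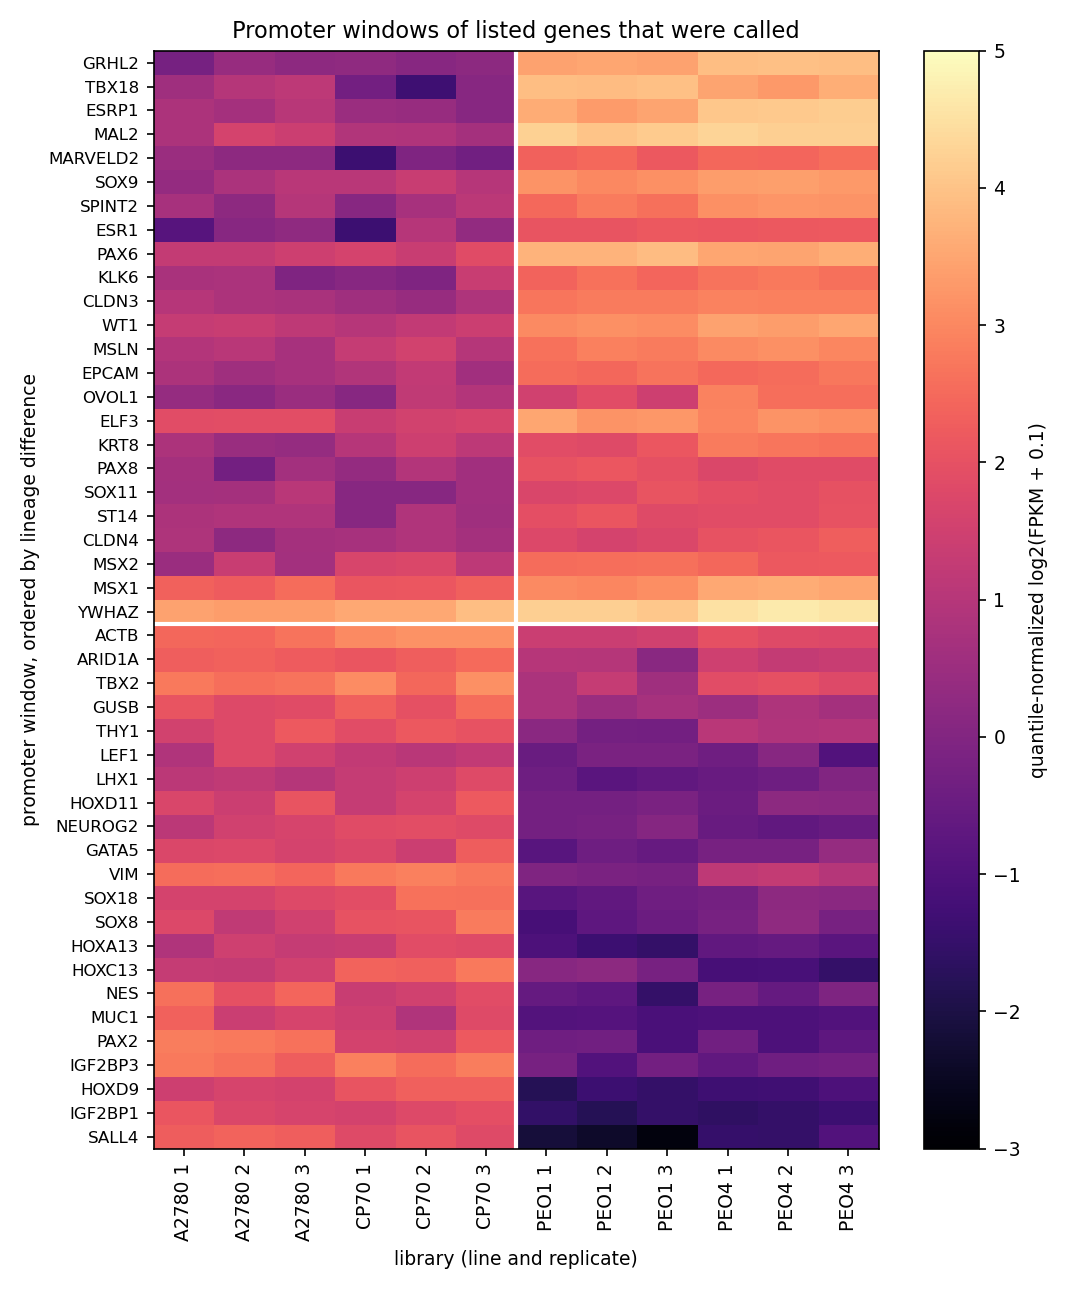
Quantile-normalized log2(FPKM + 0.1) of 46 called promoter windows of the listed genes in each of the 12 libraries, ordered by lineage difference, with 24 higher in the PEO lineage above the white line and 22 higher in the A2780 lineage below it. GRHL2 stands at the top with a difference of 3.55 and SALL4 at the bottom with -3.98, and libraries of 1 lineage are alike across replicates.

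Müllerian and serous factors were split. Of 13 promoters tested, 3 were called higher in the PEO lineage (2 over 4-fold), 1 was higher in the A2780 lineage and 9 were not called, with a median difference of 0.04. WT1, a kidney and gonad factor retained in serous cancer, had 0.909 to 1.68 FPKM (median 1.28) in the A2780 lineage and 15.9 to 20.9 (median 18.8) in the PEO lineage. The difference was 2.01 ± 0.28 (adjusted p = 0.0069). ESR1, oestrogen receptor alpha, had 0.152 to 1.20 (median 0.501) against 7.32 to 8.36 (median 7.93), a difference of 2.22 ± 0.34 (adjusted p = 0.0078) present in all 4 line comparisons. Its call was lost with the 5 Mb medians removed, where it was 0.92 (adjusted p = 0.10). Around ESR1, 5 of 12 distal windows were over 4-fold higher in the PEO lineage, with a largest difference of 3.87. PAX8, the paired-box factor of the Müllerian and renal tracts, had 0.383 to 1.14 FPKM (median 0.733) against 5.23 to 8.55 (median 6.73), a difference of 1.44 ± 0.34 (adjusted p = 0.025). LHX1, a homeobox gene of the developing duct, was higher in the A2780 lineage by 1.77 on the normalized scale, while its deposited FPKM overlapped. MECOM, EMX2 and MEIS1 were among those not called. Among 113 distal windows of this list 17 were called higher in the PEO lineage, 12 over 4-fold, and 4 in the A2780 lineage, none over 4-fold.

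Of 14 ovarian cancer surface and serum markers tested, 5 promoters were called higher in the PEO lineage (3 over 4-fold) and 1 in the A2780 lineage, with a median of 0.99. The tight-junction gene CLDN3 had 0.711 to 1.09 FPKM (median 0.822) in the A2780 lineage against 12.6 to 14.4 (median 13.4) in the PEO lineage, and the protease KLK6 had 0.446 to 1.59 (median 0.659) against 10.0 to 13.0 (median 10.8). The differences were 2.09 ± 0.30 and 2.10 ± 0.31 (adjusted p = 0.0070 and 0.0073). MSLN, mesothelin, was higher in the PEO lineage by 1.81 at its promoter, whereas 5 of its 8 distal windows were called higher in the A2780 lineage. MUC1, a transmembrane mucin, went the other way, with 1.08 to 2.20 FPKM (median 1.63) in the A2780 lineage and 0.523 to 0.785 (median 0.578) in the PEO lineage. Its difference was -2.59 ± 0.42 (adjusted p = 0.0089), over 4-fold in all 4 line comparisons, and -1.25 as deposited, where the call was lost (adjusted p = 0.069).

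Of 22 oncofetal and pluripotency genes listed, 8 had a promoter window tested, with a median difference of -0.60. Called were 3 of them, SALL4, IGF2BP1 and IGF2BP3, all over 4-fold higher in the A2780 lineage in each of the 4 line comparisons. SALL4, a zinc finger factor of embryonic stem cells, had 1.83 to 2.80 FPKM (median 2.32) in the A2780 lineage and 0 to 0.598 (median 0.219) in the PEO lineage. The ranges did not overlap, and the difference was -3.98 ± 0.53 (adjusted p = 0.0067). IGF2BP1 had 1.21 to 2.35 FPKM (median 1.99) against 0.262 to 0.399 (median 0.319) and differed by -3.35 ± 0.44, while IGF2BP3 had 1.82 to 6.36 (median 3.17) against 0.698 to 1.62 (median 1.05) and differed by -3.12 ± 0.34 (adjusted p = 0.0066 and 0.0064). Both bind messenger RNAs in embryonic tissue and in many cancers. SALL1, HMGA2, IGF2BP2, SOX2 and PEG10 were not called, with differences from -0.70 to 1.53. Among 49 distal windows of this list 8 were called higher in the A2780 lineage, 5 over 4-fold, and 4 in the PEO lineage, 3 over 4-fold. Of these, 4 of the 6 around IGF2BP3 were over 4-fold higher in the A2780 lineage, and 1 of the 6 around IGF2BP2 in the PEO lineage.

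Developmental factors were on both sides. Of 18 HOX promoters tested, 4 were called, all higher in the A2780 lineage. HOXD9 had 1.16 to 3.48 FPKM (median 2.18) against 0.202 to 0.548 (median 0.419) and differed by -3.29 ± 0.46 (adjusted p = 0.0069). HOXA13 and HOXC13 differed by -2.44 and -2.55, and HOXD11 by -1.85. As deposited HOXA13 and HOXC13 were at -1.22 and -1.05, and both calls were lost (adjusted p = 0.088 and 0.073), that of HOXC13 also with the GC class medians removed (-2.13, adjusted p = 0.066). Of 27 promoters of PAX, GATA, TBX, SOX and other developmental factors, 5 were higher in the A2780 lineage and 4 in the PEO lineage. PAX2, a kidney and Müllerian paired-box factor, had 1.74 to 3.31 FPKM (median 2.52) against 0.528 to 1.48 (median 0.897), a difference of -2.90 ± 0.43 (adjusted p = 0.0076). TBX18 had 0.180 to 0.901 (median 0.638) against 19.7 to 30.9 (median 26.1), and differed by 3.49 ± 0.47 in the PEO direction (adjusted p = 0.0067). SOX9, a factor of progenitor and duct cells, had 0.610 to 1.56 (median 1.06) against 16.1 to 21.4 (median 17.4), a difference of 2.28 ± 0.30 (adjusted p = 0.0066). PAX6, the eye and islet paired-box factor, differed by 2.20 ± 0.27 (adjusted p = 0.0064). GATA5, SOX8 and SOX18 were higher in the A2780 lineage by 2.05, 2.31 and 2.31 on the normalized scale. The calls of GATA5 and SOX18 were lost with the 5 Mb medians removed (-0.42 and -0.68, adjusted p = 0.34 and 0.12), and those of GATA5, SOX8 and SOX18 as deposited (-0.52, -0.82 and -0.75, adjusted p = 0.37, 0.16 and 0.18).

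**Figure D3:**
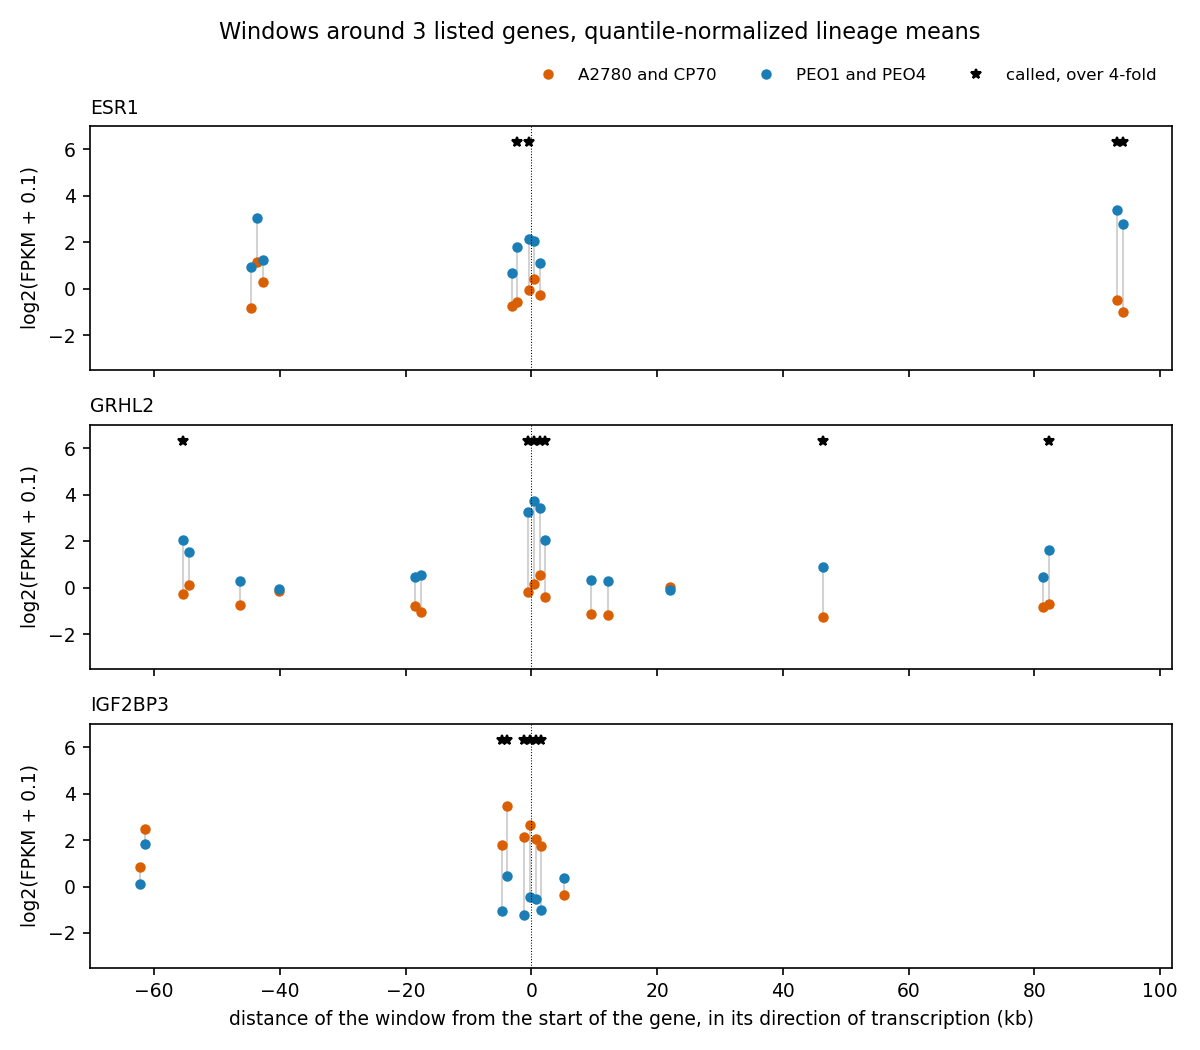
Quantile-normalized log2(FPKM + 0.1), as the mean of the line means of each lineage, of every tested window within 100 kb of the starts of ESR1, GRHL2 and IGF2BP3 against its distance from 1 start of the gene, so that counts differ from those of distal windows assigned to the nearest of all starts. Stars mark windows called with a difference over 4-fold, 4 at ESR1 and 7 at GRHL2 that were higher in the PEO lineage, and 6 at IGF2BP3 that were higher in the A2780 lineage.

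Of 17 promoters of mesenchymal genes tested 16 were not called, with a median difference of -0.60 over the list. Called was VIM, the intermediate filament protein of mesenchymal cells, which was higher in the A2780 lineage by 2.16 ± 0.45 (adjusted p = 0.017). Its deposited values overlapped and the call was lost there (-0.44, adjusted p = 0.44), at 2.00 to 5.83 FPKM (median 3.31) against 1.56 to 3.69 (median 2.41). ZEB1, SNAI1, SNAI2, TWIST1 and CDH2 were not called, at -0.72 to 0.69. Of 9 endometrioid and clear cell factors tested, MSX1 and MSX2 were called higher in the PEO lineage by 1.01 and 1.25, and LEF1 and ARID1A higher in the A2780 lineage by 1.62 and 1.27. LEF1 was not called as deposited, at -0.10 (adjusted p = 0.87), nor MSX2 with library medians subtracted, at 1.20 (adjusted p = 0.053). The ARID1A difference was -0.32 with the 5 Mb medians removed and 0.41 in the deposited values, and neither was called.

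Lists of markers of other cell types were examined in the same way. Of 12 immune genes 2 had a promoter window tested, CD14 and CD68, and neither was called, while the promoters of PTPRC, CD3E, SPI1 and LYZ had no window in the table. Of 14 fibroblast and endothelial genes 4 were tested and THY1 was called, higher in the A2780 lineage by 1.52. It turned to 0.11 as deposited and lost its call with the GC class medians removed (-1.10, adjusted p = 0.083). Of 7 neural promoters tested, NES and NEUROG2 were called higher in the A2780 lineage by 2.57 and 1.99, and 9 of the 11 distal windows of NES were called in the same direction. As deposited NES was at -1.12 and NEUROG2 at -0.47, and neither promoter was called (adjusted p = 0.057 and 0.42). Of 13 immune, 38 fibroblast and endothelial and 39 neural distal windows, 3, 3 and 10 were called higher in the A2780 lineage and 0, 4 and 2 in the PEO lineage. Of 18 housekeeping promoters, 2 were called higher in the A2780 lineage (ACTB and GUSB, by 1.17 and 1.42) and 1 in the PEO lineage (YWHAZ, by 0.85), none over 4-fold, and the median was -0.02. ACTB and GUSB turned to 0.56 and 0.23 as deposited, ACTB turned to 0.26 and YWHAZ to -0.11 with the 5 Mb medians removed, and all 13 distal windows of ACTB were called higher in the A2780 lineage.

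Of the 6 promoters with the largest differences on the A2780 side among those that hold in all 4 line comparisons, 4 lay in a stretch of 9p21 with few or no reads in the PEO lineage. They were MTAP, CDKN2B, KLHL9 and DMRTA1. MTAP, an enzyme of methionine salvage, had 3.17 to 6.06 FPKM (median 3.94) in the A2780 lineage and 0 to 0.0872 (median 0) in the PEO lineage, at least 17.98-fold higher with 3 reads per library as the lower limit. This and the least folds given below are ratios of deposited FPKM, a scale shifted towards the PEO lineage, and cannot be ranked between lineages. On the normalized scale MTAP differed by -5.87 ± 0.47. CDKN2B, which encodes the cell cycle inhibitor p15, was at least 16.5-fold higher, KLHL9 at least 12.4-fold and DMRTA1 at least 11.5-fold. All 28 consecutive tabled windows on chromosome 9 from 21031201 to 23822200 (hg19), which also take in CDKN2A, HACD4 and ELAVL2, had at most 3 reads in each PEO library, and 16 of them had 0 in all 6. The A2780 lineage had a mean of 1.24 FPKM there, PEA1 2.30 and PEA2 2.47. Absent DNA and closed chromatin cannot be told apart in these values. Over all tabled windows, 236 had at most 3 reads in every PEO library and 8 in every A2780-lineage library. This limit is in reads, and totals were at most 11461290 in PEO1 and at least 44381391 in A2780. These counts are therefore not a comparison of the lineages. A shorter run of 4 windows at GSTT1, a glutathione transferase gene on chromosome 22, had at most 1 read in each PEO library.

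NF2 and PRDM9 were the other promoters of this group. NF2, which encodes the tumour suppressor merlin, had 2.84 to 5.68 FPKM (median 3.72) in the A2780 lineage at its promoter window, which starts at 29998801 on chromosome 22, and 0 to 0.174 (median 0) in the PEO lineage, at least 17.2-fold higher. The next tabled windows, 22.5 kb before it and 14.4 kb after it, held medians of 2.52 and 1.62 FPKM in the PEO lineage, and were not called. PRDM9, which marks meiotic recombination sites, had 3.85 to 5.86 FPKM (median 4.87) against 0 to 0.506 (median 0.130), a difference of -5.38 ± 0.45 (adjusted p = 0.0064).

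The largest promoter differences on the PEO side were at SRI, BBOX1, SDC2, MAL2, LAMA2 and GRHL2. MAL2 ranked there by another promoter window than the one above, which starts at 120219301 on chromosome 8 and differed by 3.67 ± 0.36. SRI encodes the calcium-binding protein sorcin, BBOX1 the last enzyme of carnitine synthesis, SDC2 a syndecan and LAMA2 a laminin chain. SRI had 0.0758 to 0.299 FPKM (median 0.182) in the A2780 lineage and 5.17 to 17.9 (median 11.5) in the PEO lineage, a difference of 4.09 ± 0.49 (adjusted p = 0.0064). BBOX1 had 0.168 to 0.413 (median 0.233) against 12.2 to 19.6 (median 13.8), and differed by 3.84 ± 0.36. SDC2 and LAMA2 differed by 3.73 ± 0.43 and 3.61 ± 0.53. The windows of SDC2 and LAMA2 had a GC content of 36.7% and 40.4% and fell to 1.96 and 2.44 with the median of their GC class removed.

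The largest distal differences, named by the same rule, were also sharp. Higher in the PEO lineage, the window in NAALADL2 on chromosome 3 had 0.0419 to 0.518 FPKM (median 0.177) in the A2780 lineage and 8.55 to 46.1 (median 25.6) in the PEO lineage, a difference of 4.67 ± 0.70 (adjusted p = 0.0076). A window 2063 kb from ARAP2 differed by 4.66 ± 0.45, a window in TOM1L1, 20.2 kb from the start of COX11, by 4.45 ± 0.39, and a window in MEIS2, a homeobox gene whose promoter was not called, by 4.37 ± 0.53 (adjusted p = 0.0064 each). A window 468 kb from ZHX2 differed by 4.37. One 31.1 kb from NBPF14, with at most 1 read in each A2780-lineage library, was at least 34.6-fold higher in deposited FPKM. Its normalized difference was 4.29. NBPF14 belongs to a family of near-identical copies, so its reads are uncertain. Higher in the A2780 lineage, a window in DNM3 had 3.88 to 7.88 FPKM (median 4.78) against 0 to 0.349 (median 0.104), a difference of -5.76 ± 0.42. Windows 20.6 kb from TRIM52 and 1.49 kb from a start of FHIT, a fragile-site gene, differed by -5.52 ± 0.36 and -5.02 ± 0.43. Windows 161 kb from SPRY1 and 4.24 kb from SPRY2, both inhibitors of receptor tyrosine kinase signalling, were at least 13.1-fold and 11.3-fold higher. The window 244 kb from PLA2G4A differed by -4.70 ± 0.52.

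The difference also varied with position along the chromosome. Stretches of 5 Mb took up 29.4% of the variance of the difference. The 571 stretches with at least 20 windows had medians from -2.85 to 1.92. The lowest lay on chromosome 17 at 20 to 25 Mb, chromosome 15 at 20 to 25 Mb, chromosome 2 at 90 to 95 Mb and chromosome 7 at 0 to 5 Mb, and the highest on chromosome 14 at 40 to 45 Mb. The most 4-fold distal windows on the A2780 side were at 6 genes, with 32 of 37 at KCNJ12, 32 of 35 at MICALL2, 30 of 41 at AC010760.1, 21 of 25 at MAP2K3, 20 of 22 at NBPF1 and 17 of 22 at AL021920.2. With the 5 Mb medians removed, the median over these windows went from -3.02 to -0.36 at KCNJ12, from -2.89 to -0.24 at MAP2K3 and from -2.72 to -0.78 at AC010760.1. It went from -3.23 to -1.23 at MICALL2, from -3.41 to -1.99 at NBPF1 and from -3.06 to -1.64 at AL021920.2. On the PEO side there were 10 of 18 at DLG2, a synaptic scaffold, 9 of 24 at OXR1, 8 of 25 at the sialyltransferase gene ST3GAL1, 8 of 18 at SYBU, 7 of 22 at CRIM1 and 7 of 10 at MAL2. Chromosome 8 holds 4 of these genes, OXR1, ST3GAL1, SYBU and MAL2. With the 5 Mb medians removed, the medians fell from 2.64 to 1.44 at DLG2, from 2.90 to 1.51 at OXR1, from 2.85 to 1.47 at SYBU, from 2.34 to 1.49 at CRIM1 and from 3.32 to 2.04 at MAL2, and that of ST3GAL1 was then 2.05. The number of DNA copies was not measured, and its part in these stretches was not tested.

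A smaller set of windows was over 4-fold under each of 4 normalized scalings. It was required to be over 4-fold and called in the main normalization, with the median of each library subtracted, with the 5 Mb medians removed and with the medians of 20 GC classes removed, and to keep its sign in the deposited values, a requirement set after the values were seen. The sign requirement removed no window, since every 4-fold window of the main normalization kept its sign. A stretch of 5 Mb with fewer than 20 tested windows had no median removed, so its windows met that scaling unchanged. The set held 692 (14.8%) of the 4663 PEO windows and 823 (30.4%) of the 2707 A2780 windows, with a median GC content of 46.4% and 59.6%. Of the first 65 were at promoters and 627 distal, and of the second 186 and 637. Median FPKM was 0.372 in the A2780 lineage and 11.2 in the PEO lineage for the first, and 2.04 and 0.540 for the second. In the deposited values, where only the sign was required, the median difference was 4.55 for the first and -1.72 for the second.

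Among these, windows that also held in all 4 line comparisons were the promoters of 22 genes higher in the PEO lineage. They include GRHL2, ESRP1 and TBX18 from the lists, the motor adaptor HOOK1, the epithelial myosin MYO5C, the cornified-envelope gene EVPL, the epithelial GTPase RAB17, the heparan sulphate enzyme HS3ST1 and CHI3L1. HS3ST1 had means of 0.817 ± 0.150 FPKM in A2780, 0.920 ± 0.303 in CP70, 35.7 ± 1.38 in PEO1 and 38.1 ± 1.19 in PEO4 (SD, n = 3), and differed by 3.43. Genes named ZNF, for zinc finger proteins, were 7 of the 22 and 3.38% of all gene promoters tested, a share seen only after the values were known. They stood at 6 of 21 windows, namely ZNF432, ZNF677, ZNF506, ZNF736, ZNF559, ZNF300 and the read-through ZNF559-ZNF177, which shares its window with ZNF559. ZNF432 had 0.273 and 0.268 FPKM in A2780 and CP70 against 6.84 ± 0.728 in PEO1 and 6.46 ± 0.805 in PEO4.

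The corresponding set higher in the A2780 lineage held the promoters of 91 genes, the 9p21 genes MTAP, CDKN2A, CDKN2B and KLHL9 among them. No 5 Mb median was removed at these 9p21 genes, where the stretch held too few tested windows. Their differences under that scaling equal the main ones, such as -5.87 at MTAP and -4.57 at CDKN2A, so it was no test there. Transcription factors in the set, picked out after the values were seen and with no background share computed, were SALL4, ISL2, SIM1, TLX3, HOXD9, PAX2, LHX2, LMX1B, ZIC2, ZIC5, GBX2 and FOXL2, the last a factor of ovarian granulosa cells. SIM1 had 1.84 ± 0.279 FPKM in A2780 and 1.86 ± 0.688 in CP70 beside 0.170 ± 0.167 in PEO1 and 0.201 ± 0.118 in PEO4, and differed by -3.84. ISL2, a motor neuron factor, had 3.03, 3.90, 0.524 and 0.273 FPKM in the same order, and differed by -4.14. Collagen receptor DDR2, collagen COL5A2 and the G1 cyclin CCND2 were also in this set, at -3.66, -3.10 and -3.08. CACNA1B, a neuronal calcium channel, had 4.04, 5.08, 0.337 and 0.489 FPKM and differed by -4.50.

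**Figure D4:**
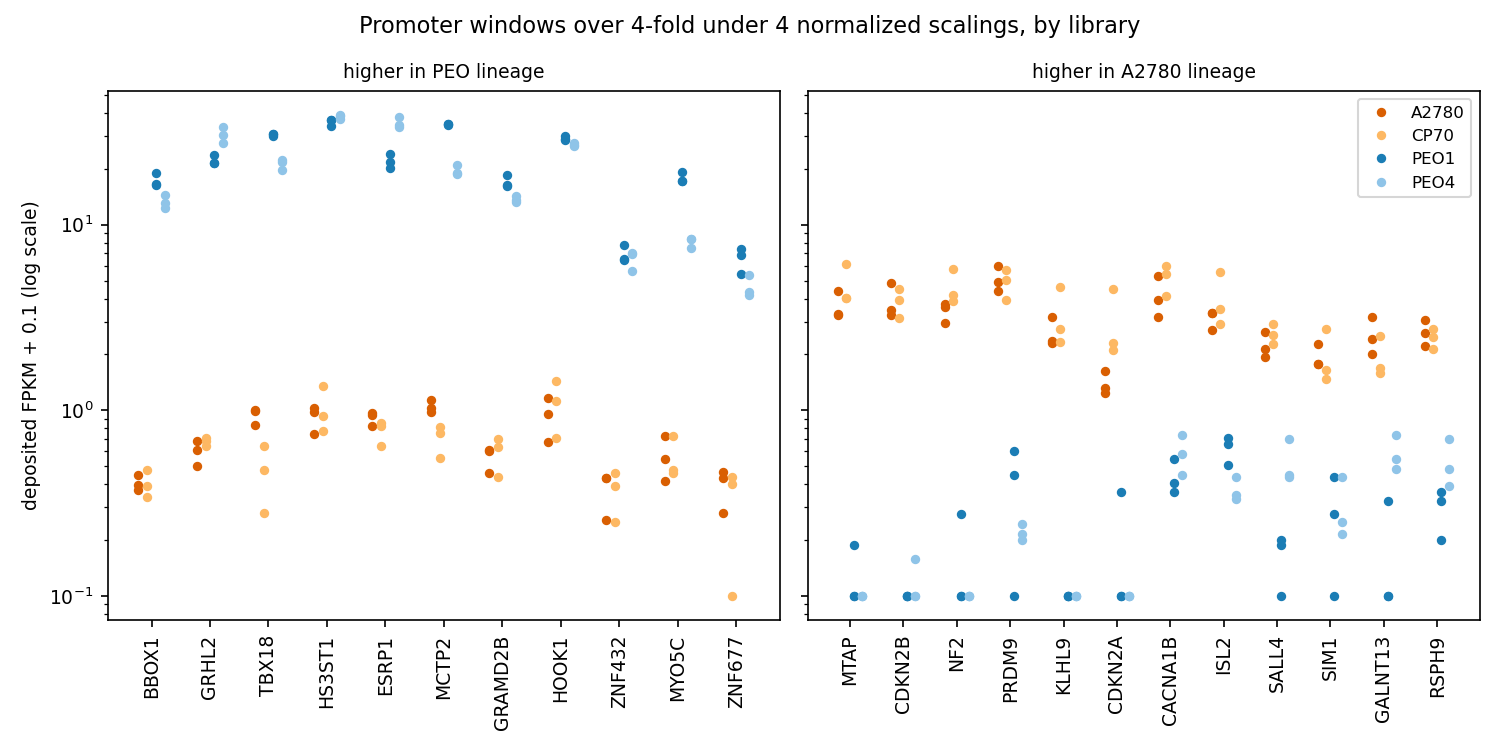
Deposited FPKM + 0.1 on a log scale in each of the 12 libraries for 11 promoter windows higher in the PEO lineage and 12 higher in the A2780 lineage, from those with the largest differences among the windows over 4-fold under the 4 normalized scalings and in all 4 line comparisons. On the PEO side A2780 and CP70 lie near or below 1 and PEO1 and PEO4 mostly above 5, and on the A2780 side A2780 and CP70 lie between 1 and 7 and the PEO libraries below 1, many at 0 reads.

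Sequence letters were unequally shared between the distal sites. The AP-1 motif TGANTCA, searched on both strands of the 1 kb window, was in 69.5% of the 4426 distal windows over 4-fold higher in the PEO lineage, 16.6% of the 2079 higher in the A2780 lineage and 47.0% of all 45788. Since the motif is richer in A and T than the A2780 sites, windows of 40 to 50% GC were also compared, where the shares were 69.6% of 2180, 32.1% of 212 and 56.1% of 19309. In the distal windows over 4-fold under the 4 normalized scalings they were 71.9% and 18.8%. The CTCF core spelled out above was in 0.542% of the PEO windows, 6.01% of the A2780 windows and 2.64% of all, and at 40 to 50% GC in 0.642%, 2.83% and 1.73%. The RUNX motif TGTGGTT was in 25.8%, 12.9% and 18.9%, and at 40 to 50% GC in 25.8%, 18.9% and 22.0%. The TEAD motif GGAATG was in 55.5%, 37.6% and 49.7%, and at 40 to 50% GC in 57.5%, 42.0% and 53.9%. The GRHL motif AACNNGTT was in 19.6%, 6.83% and 14.6%, but at 40 to 50% GC in 18.2%, 15.6% and 17.4%. CACCTG, the E-box bound by ZEB and SNAI factors, was in 52.6%, 77.1% and 63.9%, and at 40 to 50% GC in 59.3%, 58.5% and 60.8%. A match is a run of letters and not a measured binding site.

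**Figure D5:**
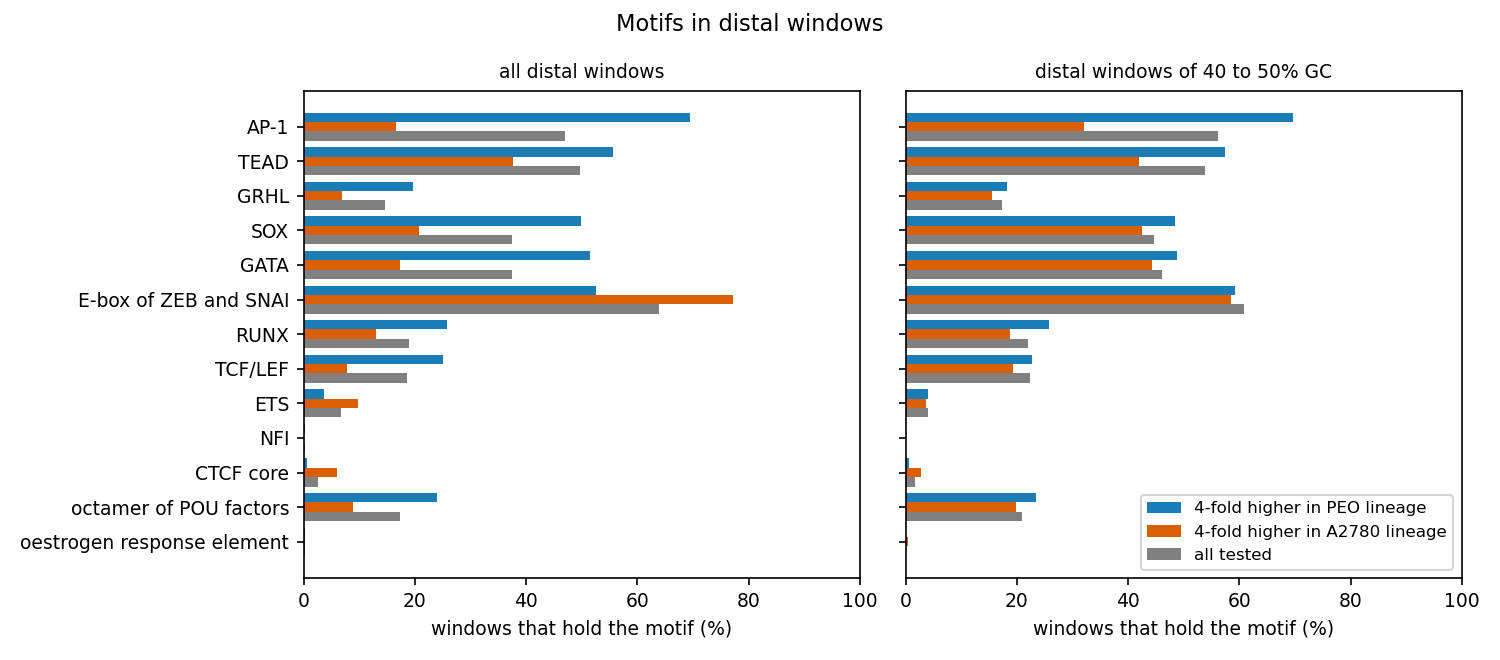
Share of distal windows (%) that hold each of 13 motifs on either strand, for windows over 4-fold higher in the PEO lineage, windows over 4-fold higher in the A2780 lineage and all distal windows tested, at any GC content and at 40 to 50% GC. AP-1 separates the sets in both panels, at 69.6% and 32.1% in the second, while the GRHL, SOX, GATA and E-box shares draw together there.

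The PEA lines took no part in the choice of windows. Of the 237 promoters over 4-fold higher in the PEO lineage, PEA1 was nearer to the PEO lineage than to the A2780 lineage at 60.8% and PEA2 at 62.0%, on values normalized over 18 libraries. Of the 4426 distal windows the shares were 35.5% and 58.4%. Of the 628 promoters higher in the A2780 lineage they were 35.8% and 63.1%, and of the 2079 distal windows 46.3% and 59.2%. At GRHL2 PEA1 and PEA2 had means of 1.07 and 2.74 FPKM, and at TBX18 0.255 and 4.06, against medians above 25 in the PEO lineage. At TBX18 PEA1 was below the median of the A2780 lineage. At IGF2BP3 the PEA lines had 5.01 and 3.88 FPKM, above the A2780-lineage median of 3.17, and at PAX8 3.37 and 2.47. The FPKM of this paragraph are as deposited and not normalized. The tabled windows held a mean of 15.2% of the reads in PEA1 and 18.9% in PEA2, between the shares of the A2780 and PEO lineages.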

How the data were processed

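Open chromatin was measured by ATAC-seq in 18 libraries, 12 of which were compared here. The authors removed duplicates with Picard, used Bowtie2 (hg19, unique alignments only), dropped blacklisted and mitochondrial sequence, and counted reads in 1 kb windows with featureCounts. They deposited FPKM values, which equal RPM here because each window is 1 kb long. A shift of read ends for the transposase and tool versions are not given in the sources used here. The deposited table holds 89428 windows that step by 900 bp, each above 2 FPKM in at least 2 of the 18 libraries, so it is selected for signal, and windows that touch share bases. Every value was a whole multiple of the value of 1 read (100% in each library, tolerance 0.001), which gave reads and library totals. Replicate libraries held no identical values and were kept as 3 per line. Chi-square per window between them, about 1 under sampling noise alone, was 1.07 to 1.09 in PEO1 and 1.09 to 1.33 in PEO4. It was 1.54 to 1.95 in A2780 and 1.16 to 2.1 in CP70. The labels do not say that they are separate cultures, so the spread within a line may be technical, and read limits cover counting error only.

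A window entered the tests if its mean of the 4 lines exceeded 1 FPKM. Differences came from limma 3.58.1 (trend) in R 4.3.3 on the 4 line means with Benjamini-Hochberg adjustment over all windows, so that a line and not a library was the unit. The test for a change with status was the exception and took its spread from the libraries of each line. The study weighted counts with voom, and the trend on FPKM takes its place here. Starts came from GENCODE 44 lifted to GRCh37, and a distal window was assigned to the nearest protein-coding start within 100 kb.

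The members and gene lists were chosen with earlier results of these data known. Printed were listed genes over 4-fold (otherwise the 2 largest called in each direction), and in each direction the 6 promoter and 6 distal windows with the largest difference among those over 4-fold in all 4 line comparisons, at least 50 kb apart, and the 6 genes with most 4-fold distal windows. PAX8, EPCAM, MSLN and the genes over 4-fold under the 4 normalized scalings were named after their values were seen. Replicate numbers did not pair the libraries (correlations of same-numbered deviations from -0.134 to 0.0433). A few listed genes count in the totals of their lists and are not reported here by name.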

Additional observations from a re-analysis of the deposited data

Results flagged for a closer look

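Of the 6 libraries of a lineage, 1 stood apart from the other 5 at 5 named windows, measured as its gap to the nearest other library over the whole range on the normalized scale. The ratio was 0.662 at the distal window near ZHX2 (A2780 replicate 1), 0.651 at the NF2 promoter and 0.728 at the CDKN2A promoter (both PEO1 replicate 2), 0.778 at the distal window near PLA2G4A (PEO4 replicate 3), and 0.661 at the YWHAZ promoter (CP70 replicate 3). Chance alone marks about 1 in 20 groups of libraries, and 77 windows in 2 lineages were examined. That none of these libraries reached the other lineage follows from the rule for a call and is no test.

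At 2 named promoters the lineage difference itself was unlike between the sensitive and the resistant lines, by limma on the 12 libraries. At HOXC13, a HOX gene of skin and hair, the difference in the resistant lines minus that in the sensitive lines was -2.45, the gap being wider between PEO4 and CP70. At GALNT13, a glycosyltransferase gene, it was 2.42, the gap being wider between PEO1 and A2780. Both were called higher in the A2780 lineage, and that call requires the same direction in all 4 line comparisons.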

How the results depend on the processing

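The main counts were 6526 windows called higher in the A2780 lineage and 8086 in the PEO lineage, 2707 and 4663 over 4-fold, 3746 whose difference changed with status, 22 and 25 listed promoters and 103 and 103 listed distal windows. Median centring and normalization over 18 libraries kept every one of them within 1.5 times. A planned count test on reads recovered from the FPKM is not part of the results. Pairs of counts below give the A2780 lineage before the PEO lineage.

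As deposited, without normalization, the counts were 999 and 46200, 418 and 27441 over 4-fold, 5880 for status, 5 and 102 listed promoters and 20 and 481 listed distal windows. With 5 Mb medians removed there were 10593 called in the A2780 direction, 1473 and 2415 over 4-fold, 2243 for status and 37 and 38 listed promoters. With GC class medians removed there were 4417 called in the PEO direction, 1354 of them over 4-fold, 14 listed promoters higher in the A2780 lineage and 65 listed distal windows higher in the PEO lineage. Above a mean of 5 FPKM the counts were 564 and 1585, 11 and 932, 180 for status, 0 and 16 listed promoters, and 1 and 22 listed distal windows. With no filter there were 10042 in the A2780 direction, 4705 over 4-fold and 183 listed distal windows. A pseudocount of 1 left 276 and 477 over 4-fold and 379 for status. The upper depth limit of the study left 7 listed promoters higher in the PEO lineage.

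Without the line A2780 the counts were 395 and 2236, 328 and 2128 over 4-fold, 1 and 15 listed promoters and 12 and 32 listed distal windows. Without CP70 they were 429 and 2058, 373 and 1963, 3 and 15, and 4 and 30. Without PEO1, 163 listed distal windows were higher in the PEO lineage. Without PEO4 they were 13871 and 15427, 4395 and 7425, 36 listed promoters in the A2780 direction, and 159 and 183 listed distal windows. A lineage left with 1 line was assumed to vary like the other.

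With the 12 libraries as replicates, 12971 and 14950 windows were called, with 39 listed promoters in the A2780 direction and 183 listed distal windows in the PEO direction. With the replicate number as a block these were 12952, 14931, 39 and 183, so the block, which only shares a number between libraries, changed few calls.

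Leaving out 1 library at a time gave 6111 to 6724 and 7617 to 8351 called, 2626 to 2834 and 4533 to 4771 over 4-fold, 3140 to 3968 for status, 21 to 24 and 24 to 28 listed promoters, and 98 to 107 and 100 to 108 listed distal windows. Over the 77 named windows and 27 alternatives, 1900 values kept their direction and call, 94 lost the call and 6 reversed. Reversed were ARID1A (0.41), THY1 (0.11), ACTB (0.56) and GUSB (0.23) as deposited, and ACTB (0.26) and YWHAZ (-0.11) with 5 Mb medians removed. The causes were not tested. Depth limits weak windows most, since the smallest PEO1 library holds 8972042 reads.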
